A study of Mus musculus with 4 samples.

Results

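Matrix proteases and the proteins that inhibit them were followed in cultured mouse muscle stem cells, the Pax7-expressing progenitors that repair skeletal muscle. The 6 genes, chosen by symbol, were the inhibitors Timp1, Timp2 and Timp3, the metalloproteases Mmp2 and Mmp14, and the serine protease inhibitor Serpine2. They are 6 of the 13772 genes measured, and all were found in the table of each library. All cells were wild type C57BL/6 with no transgene or deletion named in the labels, and grew for 7 days in DMEM with 10% fetal bovine serum on silicone (PDMS). The 4 libraries came from young cells grown on soft silicone (12 kPa) or stiff silicone (29 kPa) and from aged cells grown on either, with 1 library of each kind. Age was known from the sample names alone, and neither months of age, sex nor the number of animals behind a library was given in the sources used here. The design asks what age and the stiffness under the cells do to their transcripts.

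Matrix metalloproteases are zinc-dependent enzymes that cut collagens, laminins and fibronectin, and the tissue inhibitors of metalloproteases, the TIMPs, block them by binding their active site. Mmp14 is anchored in the cell membrane, and together with Timp2 it activates the secreted gelatinase Mmp2, so Timp2 serves both as an inhibitor and as a partner in activation. Serpine2, also called protease nexin 1, blocks thrombin, plasmin and the plasminogen activators, a proteolytic system that also feeds into metalloprotease activation. Muscle stem cells lie under a basement membrane that they cross when they are activated. Myogenin, encoded by Myog, is the transcription factor that accompanies withdrawal from the cell cycle and differentiation into myocytes, and its level was used here to order the cells.

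RNA was measured in single cells with 3' counting of unique molecular identifiers (UMIs). After a filter on cells, 1360, 1479, 1333 and 1738 cells remained in the young library on soft, the young library on stiff, the aged one on soft and the aged one on stiff, the order used below, with medians of 35607, 28612, 33315 and 37081 UMIs per cell. The level of a gene in a library is the mean over cells of its UMIs after each cell is scaled to 1000000 UMIs (CPM). All 7 progenitor markers looked up were found, but not all moved alike with age. Pax7 stood at 72.7, 66.2, 41.8 and 32.0 CPM, with a UMI in 716, 700, 461 and 506 cells. Myf5 and Vcam1 were also lower in the aged libraries. Cdh15 (156, 148, 219 and 214 CPM), Itga7 and Des were higher there, and Myod1 lay between 897 and 943 CPM. Only 1 cell barcode was shared between any 2 libraries, by young soft and aged stiff. With 1 library per group no test, p-value or standard error could be had, and the intervals below cover counting error only, not the difference between cultures or animals. A gene is called different where the levels plus 5 CPM are at least 1.5 times apart and 1 of the libraries has at least 20 CPM.

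The cells differed in how far they had differentiated. Cells with under 100 CPM of Myog made up 38.1% and 36.6% of the young libraries but 19.3% and 14.5% of the aged ones. The summed UMIs of 9 myocyte markers came to 31995, 34684, 54212 and 59573 CPM of the library. The mix of cells therefore moved with age, and each comparison of ages is given for whole libraries and within ranges of Myog.

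The DNA before the start sites is shown for Timp1, Timp2 and Serpine2, which stand for 3 patterns described below: Timp1 was lower in aged cells of the lowest Myog ranges, Timp2 varied least along differentiation, and Serpine2 was higher in the aged cells of the lowest Myog range. Each sequence is the 250 bases before the annotated start, 5′ to 3′ on the gene's strand, from RefSeq on GRCm38.p6, and capitals mark each E-box, the letters CANNTG, to which MyoD and myogenin bind. The Timp1 stretch is chrX:20869916-20870165 on the plus strand, the Timp2 stretch chr11:118355412-118355661 on the minus strand and the Serpine2 stretch chr1:79858666-79858915 on the minus strand.
Timp1: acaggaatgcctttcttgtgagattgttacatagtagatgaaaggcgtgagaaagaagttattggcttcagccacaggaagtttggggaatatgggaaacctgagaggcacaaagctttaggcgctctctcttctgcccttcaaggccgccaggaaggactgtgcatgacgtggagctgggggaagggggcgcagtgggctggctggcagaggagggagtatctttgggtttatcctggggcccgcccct
Timp2: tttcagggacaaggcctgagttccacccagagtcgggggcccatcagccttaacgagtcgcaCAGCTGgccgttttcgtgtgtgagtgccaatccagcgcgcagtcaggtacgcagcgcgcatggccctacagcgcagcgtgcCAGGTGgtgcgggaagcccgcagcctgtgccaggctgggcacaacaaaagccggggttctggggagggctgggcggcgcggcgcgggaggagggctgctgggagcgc
Serpine2: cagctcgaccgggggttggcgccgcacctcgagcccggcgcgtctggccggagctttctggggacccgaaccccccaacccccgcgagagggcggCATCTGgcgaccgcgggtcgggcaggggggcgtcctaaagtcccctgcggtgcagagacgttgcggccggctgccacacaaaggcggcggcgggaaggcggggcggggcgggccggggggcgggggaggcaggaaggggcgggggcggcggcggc

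Windows from 250 bases before to 50 bases after the start were searched on both strands for 5 of the 6 genes, and Mmp2 was not searched. Timp1 held no E-box, Serpine2 and Mmp14 held 1 each, and Timp2 and Timp3 held 2 each. One of those of Timp2, at 188 bases before the start, is CAGCTG. An E-box occurs in 72.3% and CAGCTG in 16.3% of all 32851 windows, so these matches are common. The AP-1 letters TGANTCA were in none of the 5 windows and in 7.81% of all windows. The TEAD letters GGAATG were in the Timp1 window alone, near its first base, and in 14.7% of all windows. Of the Sp1 letters GGGCGG, Serpine2 held 6 copies, and 35.7% of all windows held at least 1.

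Timp1, a secreted inhibitor with broad activity against metalloproteases, had the largest log2 ratios between the ages among the 6 genes. Its level was 322 CPM in young soft, 361 CPM in young stiff, 107 CPM in aged soft and 96.0 CPM in aged stiff. Both young libraries lay far above both aged ones. On soft, the log2 ratio of aged over young was −1.54, and the ratio of summed UMIs was 0.304 (95% interval 0.294 to 0.314). On stiff, the log2 ratio was −1.86 and the ratio of summed UMIs 0.249 (0.241 to 0.257). The upper end of the cells differed as well: the highest cell held 5779, 7831, 2046 and 2656 CPM.

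Timp2, the inhibitor that also takes part in the activation of Mmp2, was nearly level across the libraries. Its level was 322, 328, 284 and 293 CPM in the order above. The log2 ratio of aged over young was −0.17 on soft and −0.16 on stiff, close to the medians of −0.12 and −0.13 over all genes compared. At least 1 UMI of Timp2 was seen in 1323, 1421, 1279 and 1671 cells, and the top 10% of cells held only 26.4% to 28.3% of the CPM. Timp1 was spread far less evenly, with 53.8% to 60.1% of its CPM in the top 10%.

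Timp3, which binds to the matrix itself and also blocks ADAM proteases, was sparse. Its level was 9.75 CPM in young soft, 10.6 CPM in young stiff, 2.87 CPM in aged soft and 2.41 CPM in aged stiff, all under the floor of 20 CPM. It was seen in 105, 116, 60 and 92 cells. The ratio of summed UMIs, aged over young, was 0.346 (0.278 to 0.427) on soft and 0.229 on stiff, and the highest cells held 1390, 2150, 327 and 342 CPM.

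Mmp14, the membrane-anchored collagenase, was lower in the aged libraries. Its level was 47.0 and 47.6 CPM in the young libraries and 29.4 and 25.8 CPM in the aged ones. The log2 ratio of aged over young was −0.59 on soft (ratio of summed UMIs 0.519, 0.481 to 0.559) and −0.77 on stiff (0.433). Part of the Mmp14 signal is uncertain, since 27.0% of the stretches of 30 bases in the last 500 bases of its transcript also occur in transcripts of other genes, against 0 for each of the other 5 genes.

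Mmp2, the secreted gelatinase that Mmp14 activates, was near the limit of detection. Its level was 2.78, 3.33, 2.99 and 2.49 CPM, from 118, 116, 105 and 121 UMIs in 68, 58, 55 and 70 cells. The levels lay close together. The ratio of summed UMIs, aged over young, was 0.943 (0.718 to 1.24) on soft and 0.672 (0.517 to 0.875) on stiff.

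Serpine2, the inhibitor of thrombin and plasminogen activators, stood at 136 CPM in young soft, 122 CPM in young stiff, 126 CPM in aged soft and 97.9 CPM in aged stiff. The aged stiff library was lowest. The log2 ratio of aged over young was −0.10 on soft and −0.30 on stiff. The ratio of summed UMIs was lower, 0.774 on soft and 0.631 on stiff, because cells with many UMIs weigh more in it than in a mean over cells.

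**Figure D1:**
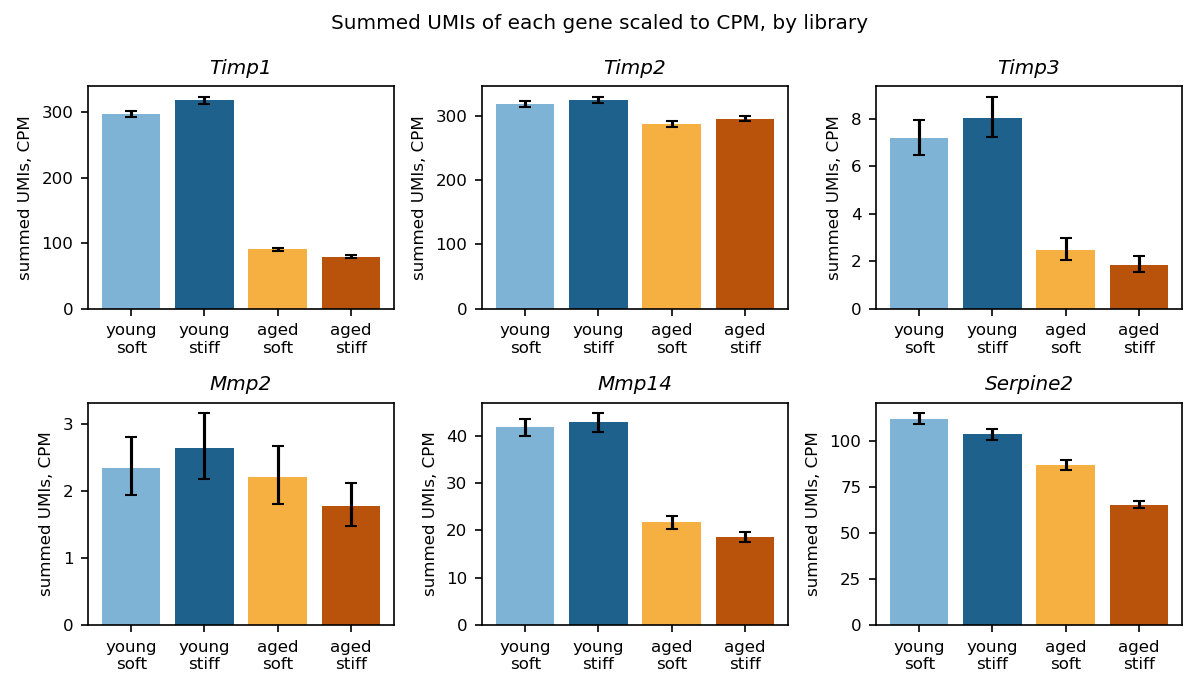
Bars are the summed UMIs of each gene scaled to 1000000 UMIs of the library (CPM), by library, on axes that start at 0, and error bars are exact 95% Poisson intervals that cover counting error only. Timp1, Timp3 and Mmp14 are lower in both aged libraries, and so is Serpine2 by this measure (112, 104, 86.8 and 65.3 CPM). Timp2 lies between 287 and 324 CPM in all 4, and Mmp2 between 1.77 and 2.64 CPM.

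In whole libraries, stiffness went with small differences. Of the 4 genes that reached the floor (Timp1, Timp2, Mmp14 and Serpine2), 0 were at least 1.5 times apart between stiff and soft in young cells, where 0.166% of all 6034 genes compared were, and 0 in aged cells, where 0.216% of 5552 genes were. The largest difference was that of Serpine2 in aged cells, with a log2 ratio of stiff over soft of −0.35 (ratio of summed UMIs 0.753, 0.722 to 0.786). In young cells the log2 ratio of Serpine2 was −0.15. Timp1 was higher on stiff in young cells, with a ratio of summed UMIs of 1.07 (1.05 to 1.10), and lower on stiff in aged cells, with 0.878 (0.843 to 0.914).

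With age, 2 of the 4 genes, Timp1 and Mmp14, were at least 1.5 times lower in aged cells on soft, and Timp1 and Mmp14 were so on stiff as well. None of the 4 was at least 1.5 times higher. Of all genes, 10.7% were at least 1.5 times lower in aged cells on soft and 12.2% on stiff, while 2.96% and 3.32% were higher, so a lower level in aged cells was common. For Mmp14 on soft, whose log2 ratio lay just past the limit, the call was lost under median-of-ratios scaling (−0.50). With cells weighted to the mean share of each Myog range over the 4 libraries, Mmp14 was at −0.09 on both substrates and Timp1 at −0.90 and −1.07. These 2 comparisons use different libraries, while each shares a library with the comparisons of stiffness.

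All 6 genes were highest in the cells with the least Myog. Cells were put into 5 ranges of Myog, with limits at 100, 500, 2000 and 5000 CPM, which are ranges and not cell types, and 88, 72, 66 and 76 cells lay between 50 and 200 CPM, near the first limit. Timp1, Mmp14 and Serpine2 were at least 2 times lower in the highest than in the lowest range in all 4 libraries. Timp2 was so in both young libraries, and in aged soft and aged stiff stood at −0.75 and −0.76 log2. Of all genes, 18.5%, 18.9%, 16.8% and 15.7% were at least 2 times lower. Mmp14 reached the floor only through the lowest range, as did Serpine2 in young soft and Timp3 in the young libraries, so these could not have been called higher, and their calls describe the levels without adding support.

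Timp1 had the largest log2 ratio along Myog among the 6 genes in each library. In cells with under 100 CPM of Myog it stood at 742, 857, 355 and 359 CPM, and in cells with at least 5000 CPM at 23.0, 38.6, 36.2 and 35.3 CPM. The ages were thus far apart at the low end of Myog, while at the high end young soft was the lowest of the 4. The summed UMIs were 32.3 times higher in the lowest range in young soft (26.1 to 40.5) and 9.68 times higher in aged soft (8.28 to 11.4). Most of the difference along Myog lay in the first steps: in young soft the level went from 742 to 222 and 55.6 CPM over the first 3 ranges.

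Serpine2 and Mmp14 followed a similar course. Serpine2 stood at 301, 273, 474 and 459 CPM in the lowest range and at 17.3, 25.2, 51.4 and 57.2 CPM in the highest, so the aged cells were above the young ones at both ends. Mmp14 stood at 94.9, 99.4, 98.3 and 104 CPM in the lowest range and at 12.1, 18.1, 19.9 and 16.5 CPM in the highest. Its 4 libraries nearly coincided in the lowest range.

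Timp2 kept much of its level. It stood at 387, 391, 311 and 325 CPM in the lowest range, at 313, 323, 297 and 308 CPM between 500 and 2000 CPM of Myog, and at 141, 176, 182 and 190 CPM in the highest range. The lower level was thus mostly in the cells with the most Myog.

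Timp3 and Mmp2 had their highest levels in the lowest range. Timp3 stood there at 23.1, 26.3, 9.40 and 9.04 CPM, from 327, 315, 65 and 54 UMIs of the 362, 354, 118 and 126 in each library. In aged stiff most Timp3 UMIs thus lay in cells above that range. In the highest range of young stiff no Timp3 UMI was found in 101 cells, which allows up to 1.05 CPM by a limit of 3 counts, and in aged soft all 18 UMIs came from 1 cell. Mmp2 stood at 6.39, 7.07, 12.0 and 11.3 CPM in the lowest range. In the highest range of young soft no Mmp2 UMI was found in 95 cells, which allows up to 0.858 CPM by the same limit.

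**Figure D2:**
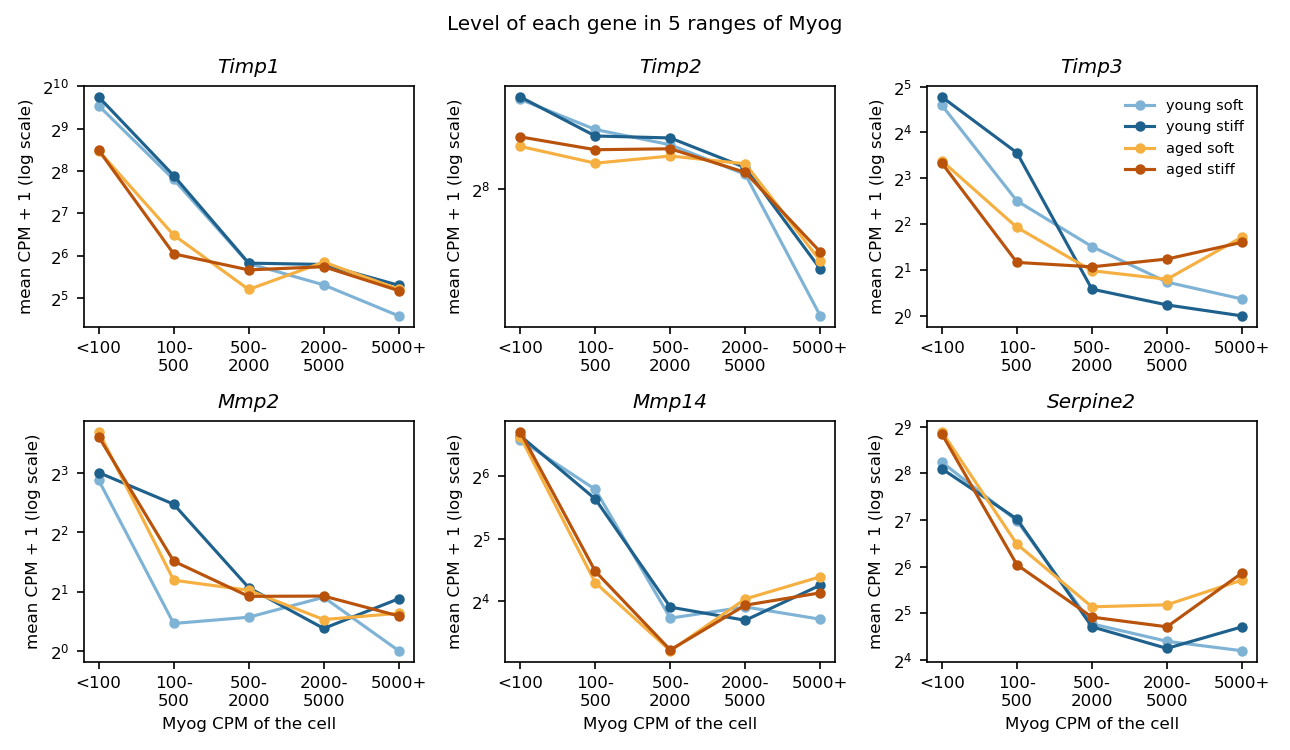
Each panel shows the mean CPM plus 1 of a gene (log axis) in 5 ranges of Myog CPM, with 1 line per library. Timp1, Mmp14 and Serpine2 are far lower past 500 CPM of Myog in every library, and Timp2 is the flattest.

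Myog itself declines in late myocytes, so the cells were also ordered by the summed CPM of 12 contractile genes and cut into 5 quintiles over all libraries. On this axis Timp2 had a dip and not a slope. In young soft it stood at 402, 260, 262, 323 and 336 CPM from quintile 1 to quintile 5, and in aged stiff at 350, 255, 224, 295 and 340 CPM. In both its level in the most contractile cells was above that in the middle ones, as it was in young stiff (258 CPM in quintile 3 and 380.4 CPM in quintile 5) and aged soft (232 and 336 CPM).

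Timp1, Mmp14 and Serpine2 showed a step between quintiles 2 and 3. Mmp14 in young soft went from 94.5 and 64.8 CPM in quintiles 1 and 2 to 7.84, 5.84 and 3.49 CPM, and in aged soft from 99.1 and 65.5 CPM to 7.76, 5.83 and 3.49 CPM. These profiles of young and aged cells nearly coincide. Serpine2 in young soft stood at 309, 157 and 12.1 CPM in quintiles 1, 2 and 3, and in aged soft at 492, 269 and 20.6 CPM. The aged cells were higher in each of the 3. Timp1 in quintile 1 stood at 739.97, 821, 379 and 386 CPM in the 4 libraries, so the difference between ages seen at low Myog was present on this axis too. From quintile 3 on, Timp1 stood between 22.9 and 41.5 CPM in all libraries.

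Within the cells under 100 CPM of Myog, age went with 3 different patterns among the 6 genes. Timp1 was lower in aged cells, with log2 ratios of −1.06 on soft (ratio of summed UMIs 0.476, 0.455 to 0.497) and −1.24 on stiff (0.423, 0.405 to 0.442). Serpine2 was higher in aged cells, by 0.65 log2 on soft (1.54, 1.47 to 1.62) and 0.74 log2 on stiff (1.60, 1.52 to 1.68). Mmp14 differed little, by 0.05 log2 on soft (1.01, 0.922 to 1.11) and 0.06 log2 on stiff (0.981, 0.893 to 1.08). The lower level of whole aged libraries was thus not seen among cells of low Myog.

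Timp3 was lower in aged cells of this range, with log2 ratios of −0.96 on soft (0.510, 0.384 to 0.667) and −1.16 on stiff (0.358, 0.263 to 0.479). It reached the floor only through the young libraries, where it is high, and is not counted here. Mmp2, under the floor in all libraries, went the other way, with ratios of summed UMIs of 2.07 (1.52 to 2.81) on soft and 1.82 (1.32 to 2.51) on stiff. Timp2 had log2 ratios of −0.31 on soft and −0.26 on stiff. Of the 4 genes at the floor in all libraries, Timp1 was thus at least 1.5 times lower and Serpine2 higher on each substrate, and Timp2 and Mmp14 were neither. Of all genes, 5.19% were lower and 3.22% higher on soft, and 4.9% lower and 3.77% higher on stiff.

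The same range also differed between ages in other ways, whose part in these results was not tested. It held Acta1, skeletal muscle actin, at 169, 59.7, 713 and 975 CPM, the proliferation marker Mki67 at 264, 259, 165 and 114 CPM, and Pax7 at 158, 153, 163 and 160 CPM. Among its cells that were also in the lowest 2 contractile quintiles, Timp1 was at −1.03 and −1.18 log2, Serpine2 at 0.67 and 0.81 log2 and Mmp14 at 0.07 and 0.13 log2, aged over young on soft and on stiff. Those values lie close to the ones of the whole range.

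**Figure D3:**
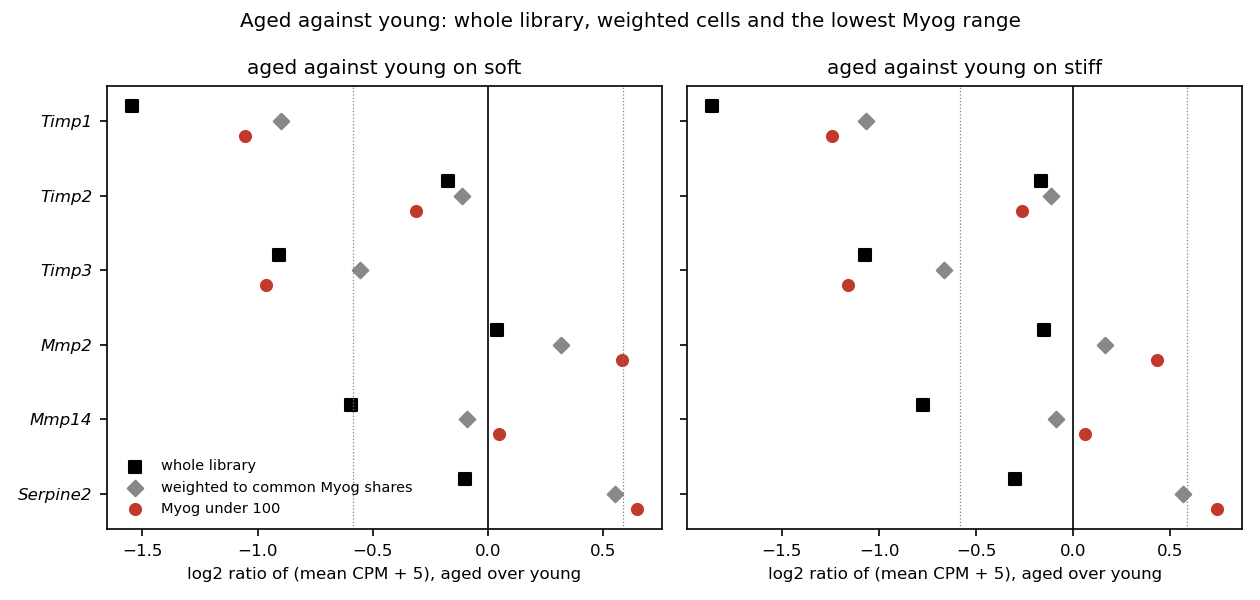
Log2 ratios of aged over young (mean CPM plus 5) on soft and stiff are shown for whole libraries (squares), for cells weighted to common shares of the Myog ranges (diamonds) and for cells under 100 CPM of Myog (circles), with dotted lines at 1.5 times. Timp1 stays on the lower side under all 3, Mmp14 moves from −0.59 and −0.77 to −0.09 and −0.09 when weighted, and Serpine2 moves to 0.55 and 0.56.

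The next range showed another order. Between 100 and 500 CPM of Myog, Timp1 stood at 222, 236, 89.0 and 65.2 CPM, Mmp14 at 54.3, 48.7, 18.6 and 21.2 CPM and Serpine2 at 126, 129, 88.4 and 64.8 CPM. Aged cells were lower for all 3 genes, Serpine2 included. On soft, Timp1 and Mmp14, the latter at the floor through the young library, were at least 1.5 times lower, as were 24.9% of all genes, and on stiff Serpine2 as well, beside 25.6% of all genes. In this range Acta1 was at 4091, 6440, 10131 and 13591 CPM, so equal Myog did not mean equal contractile level there.

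At the highest Myog, Serpine2 was again higher in aged cells, by 1.34 log2 on soft and 1.05 log2 on stiff, from 17.3 and 25.2 CPM in young and 51.4 and 57.2 CPM in aged cells. It was the only 1 of the 3 genes at the floor in this range (Timp1, Timp2 and Serpine2) to be at least 1.5 times apart between ages, on soft beside 3.48% and on stiff beside 3.09% of all genes at least 1.5 times higher. On soft it reached the floor there through the aged library. Between 2000 and 5000 CPM of Myog its log2 ratios were 0.68 and 0.39. With stiffness, Timp1 in the young cells of highest Myog was at least 1.5 times higher on stiff (38.6 against 23.0 CPM, ratio of summed UMIs 1.51, 1.13 to 2.04, from 105 and 85 UMIs), as were 1.19% of all genes, while the 2 aged libraries stood at 36.2 and 35.3 CPM.

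Within the lowest range stiffness made little difference. None of the 5 genes at the floor in young cells, and none of the 4 at the floor in aged cells, was at least 1.5 times apart, beside 0.378% and 1.58% of all genes. The log2 ratio of Serpine2, stiff over soft, was −0.14 in young cells (0.915, 0.876 to 0.956) and −0.05 in aged cells (0.948, 0.900 to 0.999). Timp1 was higher on stiff in young cells, with a ratio of 1.10 (1.07 to 1.13), and at 0.977 (0.923 to 1.03) in aged cells. The lower level of Serpine2 in the whole aged stiff library thus was larger than that in its cells of low Myog.

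Cells of low Myog were split by whether they held a UMI of the proliferation genes Mki67 or Top2a. In young soft, Timp1 stood at 682 CPM in the 326 cells with such a UMI and at 845 CPM in the 192 cells without, and in young stiff at 731 and 1029.7 CPM. In aged soft it stood at 385 CPM in 124 cells with and 326 CPM in 133 cells without, and in aged stiff at 405 and 325 CPM. The order was thus opposite in the 2 ages. The median depth was 33557 UMIs with and 26202 without in young soft, and 26604 and 21494 in aged soft.

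Serpine2 was lower in the cells with a proliferation UMI in all 4 libraries: 266 against 361, 222 against 344, 388 against 555 and 344 against 546 CPM. Timp3 was lower with such a UMI in young cells, with 11.1 against 43.5 CPM on soft and 9.46 against 49.6 CPM on stiff, and stood at 7.59 against 11.1 and 4.91 against 12.1 CPM in aged cells. Mmp2 stood at 2.47 against 13.0 and 4.16 against 11.1 CPM in young cells and at 10.1 against 13.8 and 6.72 against 14.7 CPM in aged cells. Timp2 was lower with such a UMI in young cells (334 against 477 and 333 against 471 CPM), and in aged cells stood at 318 against 305 and 297 against 346 CPM. Mmp14 was nearly equal, with ratios of summed UMIs between 1.01 and 1.09.

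In cells without a proliferation UMI, the log2 ratio of Timp1, aged over young, was −1.36 on soft and −1.65 on stiff, and in cells with one −0.82 and −0.84. Serpine2 was higher in aged cells of both kinds, by 0.61 and 0.66 log2 without and by 0.54 and 0.62 log2 with such a UMI. Timp2 had log2 ratios of −0.64 on soft and −0.44 on stiff without, and −0.07 and −0.16 with such a UMI. The higher Serpine2 and the lower Timp1 of aged cells were therefore present in both kinds of cell, and the gap of Timp2 was mainly in cells without one.

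Single cells varied widely within the lowest range. The median cell held 507, 582, 273 and 248 CPM of Timp1, with the 10th and 90th percentile at 119 and 1506 CPM in young soft and at 47.6 and 754 CPM in aged soft. Many aged cells thus lay within the range of young ones. The median of Serpine2 was 207, 187, 380 and 320 CPM, with 35.6 and 697 CPM as the 10th and 90th percentile in young soft and 54.4 and 1062 CPM in aged soft. For Timp3 and Mmp2 the median cell held none.

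**Figure D4:**
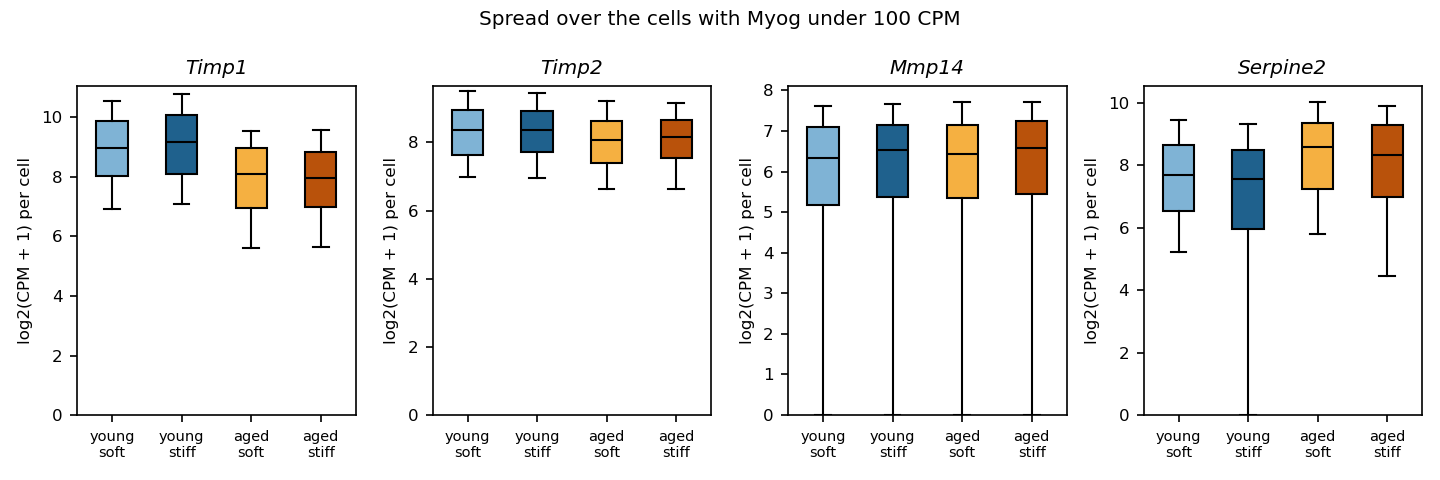
Boxes show log2(CPM + 1) per cell in cells under 100 CPM of Myog (518, 542, 257 and 252 cells), with the median, the quartiles and whiskers at the 10th and 90th percentile. The Timp1 boxes of aged cells sit lower, those of Serpine2 sit higher and those of Mmp14 overlap almost fully.

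Across all cells of a library, Timp1, Mmp14 and Serpine2 were found together. In young soft Spearman's rho over 1360 cells was 0.69 for Timp1 and Serpine2, 0.62 for Timp1 and Mmp14 and 0.58 for Mmp14 and Serpine2. Within the 518 cells of low Myog the same pairs had 0.08, 0.11 and 0.04, and within the 252 such cells of aged stiff 0.11, 0.20 and 0.21. Timp2 had no rho above 0.293 with another of the 6 genes in any library over all cells. Cells of a library share that library and their depth, and the median rho over the 15 pairs, 0.174, 0.211, 0.175 and 0.11, was 0.0388 to 0.0779 after each cell was thinned to 2000 UMIs.

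Over the 20 combinations of library and Myog range, 7367 genes were compared with each of the 6 by Pearson's r of log2(CPM + 5). The nearest to Timp1 were Zc3hav1, Wisp1 and Tcf7l1 (r = 0.985, 0.985 and 0.983), and to Timp2 Cdkn2d, Tmem107 and Phlda3 (0.954, 0.945 and 0.944). The nearest to Mmp14 were Cald1, Id3 and Cavin3 (0.985, 0.984 and 0.983). Nearest to Serpine2 was Bmp1, a protease that trims procollagen, then Arhgap42 and Crim1 (0.987, 0.986 and 0.985). For the sparse Timp3 they were Bcl2, Mme and Prr9 (0.963, 0.962 and 0.956), and for Mmp2 Psrc1, Gper1 and Ephx1 (0.952, 0.943 and 0.941). Mme encodes neprilysin, a membrane metalloprotease that was not in the list of related genes below.

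The 6 genes were set beside a list of 86 other proteases, inhibitors and processing proteins, of which 70 were found in the tables and 24 to 26 reached the floor in a comparison. Along Myog, 13 of 29, 12 of 30, 9 of 30 and 10 of 29 were at least 2 times lower in the highest range, beside 18.5%, 18.9%, 16.8% and 15.7% of all genes, and 2, 3, 1 and 1 were at least 2 times higher. The list had medians of −0.75, −0.74, −0.70 and −0.60 log2 beside −0.16, −0.21, −0.16 and −0.17 over all genes. Between stiff and soft, 0 were at least 1.5 times apart in either age. With age on soft, 6 of 26 were lower and 1 higher, beside 10.7% and 2.96% of all genes. With age on stiff, 5 of 25 were lower and 1 higher, beside 12.2% and 3.32%. The medians of −0.05 and −0.03 log2 lay above those of all genes, −0.12 and −0.13.

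Among these, in whole libraries, Serpinh1, the collagen chaperone HSP47, was at 179.8 CPM in aged soft and 499 CPM in young soft (−1.45 log2), and at −1.65 log2 on stiff. F2r, the thrombin receptor, was at −1.18 log2 on soft and −1.38 log2 on stiff, and the serpin Serpinf1, also called PEDF, at −0.87 and −1.03 log2. Adam19 was at −0.67 log2 on soft and Prss23 at −0.77 log2 on stiff. Of 12 matrix components cut by these proteases, 7 were at least 1.5 times lower in whole aged libraries on soft and 7 on stiff, beside 10.7% and 12.2% of all genes. Their medians were −0.84 and −1.03 log2. At low Myog, 4 of 15 were lower and 1 higher on soft, and 3 of 15 lower and 0 higher on stiff, with medians of −0.31 and −0.26 log2. Of all genes there, 5.19% and 4.9% were lower. In whole libraries, fibronectin, Fn1, was at −1.67 and −1.86 log2 and the basement membrane collagen Col4a1 at −1.36 and −1.44 log2. Col5a1 was at −1.28 log2 on soft and Col3a1 at −1.41 log2 on stiff. On soft Col5a1 reached the floor only through the young library (34.7 CPM, against 11.4 CPM in aged). It could thus not have been called higher there. Between stiff and soft the listed genes furthest apart were Adam9 (−0.38 log2), Cst6 (0.27), Ctsl (−0.19) and Adam10 (−0.13) in young cells, and F2r (−0.29), Cst6 (0.23), Bmp1 (−0.21) and Pcolce (−0.20) in aged cells.

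In cells of low Myog, listed genes differed in both directions. On soft, 6 of 30 were at least 1.5 times higher in aged cells and 4 lower, beside 3.22% and 5.19% of all genes. On stiff, 4 of 29 were higher and 3 lower, beside 3.77% and 4.9% of all genes. The genes of that range named next were picked with their values in view. The complement inhibitor Serping1 was the furthest up, at 38.3 CPM in aged soft and 9.84 CPM in young soft (1.55 log2; 1.32 log2 on stiff), followed by Pcolce, which enhances procollagen trimming (1.07 and 0.91 log2), and the secreted serine protease Htra1 (0.78 and 0.83 log2). On the lower side were Serpinh1 (−0.94 and −0.90 log2) and the membrane protease Mmp15 (−0.91 and −0.79 log2). Timp1 and Timp3 had lower ratios than all of these on both substrates. Serping1 reached the floor on soft only through the aged library, and Mmp15 on both substrates only through the young libraries. Serping1 could thus not have been called lower on soft, nor Mmp15 higher on either substrate. Their calls, part of the counts above, describe the levels without adding support.

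**Figure D5:**
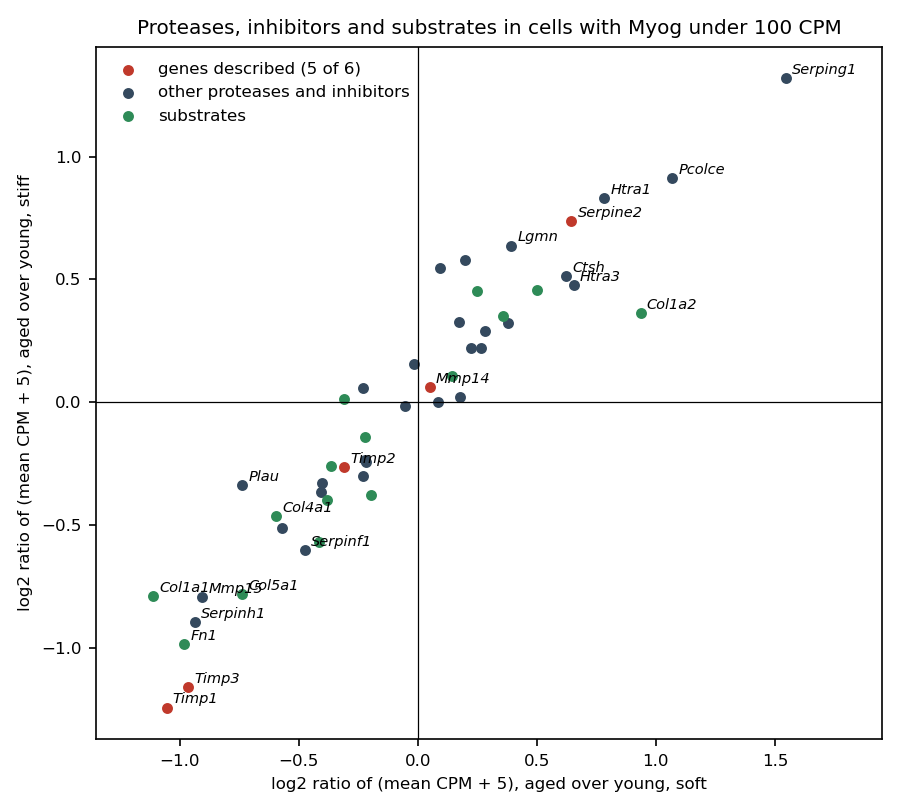
Points are the 48 genes at the floor on both substrates in cells under 100 CPM of Myog, placed by their log2 ratio of aged over young on soft (x axis) and stiff (y axis). Red are 5 of the 6 genes described, dark blue 28 other proteases and inhibitors and green 15 substrates, and names mark the described genes and those at least 1.5 times apart on either substrate.

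Timp and Mmp genes are also made by fibroblasts and immune cells. Summed markers of those cells differed between ages, and whether the share of such cells did was not tested. Of 8 fibro-adipogenic markers, 6 were found, with summed UMIs of 219, 213, 118 and 81.4 CPM of the library, most of it Col3a1. Col3a1 was seen in 881, 902, 579 and 681 cells, so it was not confined to a few cells. Ly6a of the same markers went the other way, at 15.5, 19.0, 57.7 and 32.9 CPM, and at 35.8, 46.4, 234 and 167 CPM in cells of low Myog. Pdgfra had UMIs in 28, 19, 25 and 29 cells, and Lum was at 0 in aged soft. Of 8 immune markers, 7 were found, at 3.22, 5.10, 17.8 and 16.5 CPM, with Ptprc at 0 in both young libraries and seen in 5 and 3 aged cells. Over whole libraries, 28, 19, 30 and 32 cells held Pdgfra or Ptprc. Among the cells of low Myog, Pdgfra was seen in 12, 12, 9 and 5 cells, or 2.32%, 2.21%, 3.50% and 1.98% of them. With cells holding either gene left out, the log2 ratios of aged over young at low Myog were −1.03 and −1.20 for Timp1, and 0.65 and 0.79 for Serpine2.

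Neighbouring genes could also share counts. Timp1 lies inside the gene Syn1 and Timp3 inside Syn3, each on the opposite strand, and whether the counting used strand was not given in the sources used here. Syn1 itself was counted at 232, 199, 122 and 126 UMIs, far under the UMIs of Timp1, and Syn3 at 3, 13, 4 and 4. Timp2 holds Cep295nl on its own strand.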

How the data were processed

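Each library's table holds log2(CPM + 1) per cell for 13772 genes, deposited by the authors. The log2 unit was read from the values, which sum to 1000000 per cell once the log is undone. Libraries were made with 10x 3' version 3 chemistry, per the labels' protocols, and the submitters' processing notes name Cell Ranger 6.1.2 and Partek with no role for either. A genome build was not given in the sources used here. UMIs were worked back from each cell's steps. Of the values of low UMI count, at least 99.95% came out whole within 0.05. Large counts could not be checked that closely with the digits given. They served for counting intervals (exact Poisson, exact conditional binomial) and thinning.

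Cells needed 500 genes or more and no more than 20% of mitochondrial counts, and no doublet caller was run, so doublets remain. Levels are means of CPM over cells, and log2 ratios use a pseudocount of 5 CPM, which understates differences of low genes. Named are the 6 genes, for each the 3 most similar profiles, up to 4 listed genes per comparison of whole libraries and up to 3 substrates per comparison of ages, and listed genes of the lowest Myog range were added after their values were seen. The genes and lists were chosen with earlier results of these data known. The computation was tested on simulated data, with Python 3.11.15, numpy 2.4.6, scipy 1.17.1 and pandas 2.3.3. Alternatives covered pseudocount, floor, scaling, cell filters, cell mix and the limits of the Myog ranges.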

Additional observations from a re-analysis of the deposited data

Results flagged for a closer look

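In whole libraries, Timp1 went in opposite directions with stiffness in the 2 ages. The ratio of summed UMIs, stiff over soft, was 1.07 in young and 0.878 in aged cells. The log2 ratio was 0.16 in young and −0.15 in aged cells, and 0.20 and 0.03 with cells weighted to common Myog shares. The lower level in aged stiff was thus not seen after weighting. Within aged cells the ratio of summed UMIs was 0.977, 0.653, 1.45, 0.892 and 0.93 from the lowest to the highest Myog range. Timp1 also went in opposite directions with proliferation UMIs among cells under 100 CPM of Myog. The ratio of cells with over cells without a UMI of Mki67 or Top2a was 0.777 in young soft and 0.669 in young stiff, against 1.22 in aged soft and 1.38 in aged stiff. Neither difference between ages was tested, since each value comes from 1 library.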

How the results depend on the processing

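No paired analysis was possible because each group is 1 library, and no library could be left out for the same reason. The count of genes at least 1.5 times apart between ages on soft, 2, was 1 with a pseudocount of 20 CPM, with median-of-ratios scaling, with a stricter filter on cells and with cells weighted to common Myog shares. On stiff, 2 likewise became 1 with a pseudocount of 20 CPM and with weighting. In each case Timp1 was the gene still called. Other alternatives added a gene on the lower side. With summed UMIs, Serpine2 was called on stiff (65.3 CPM in aged and 104 CPM in young). With a floor of 1 CPM, Timp3 was called on soft (−0.91 log2) and on stiff (−1.07 log2). Median-of-ratios scaling moved age ratios by up to 0.10 log2 on soft and 0.11 on stiff, and by less for genes of low level because of the pseudocount. Among cells of low Myog on soft, 3 (Timp3 included) became 1, Timp1, with only cells holding a UMI of Mki67 or Top2a, an alternative chosen after seeing the data. The median rho over pairs was 0.0483, 0.074, 0.0779 and 0.0388 when thinned, and 0.101, 0.124, 0.0862 and 0.0947 within low Myog. In aged stiff the value within low Myog lay close to the 0.11 over all cells. The causes were not tested. No called difference changed direction under the alternatives run. Depth limits Timp3 and Mmp2 most.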
